A study of Mus musculus with 6 samples.

Results

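Cytochrome P450 genes were examined in RNA-seq of colonic intestinal epithelial cells (IECs) from mice with dextran sodium sulphate (DSS) colitis. A gene was included where its symbol was Cyp, digits, lower-case letters and digits, a form that leaves out pseudogene symbols, and 94 of the 55487 genes listed met this rule. They belong to 39 subfamilies and 16 families, lie on 15 chromosomes and are all annotated as protein-coding in GENCODE vM21 (GRCm38). The control genotype, Nsd2 f/f, in which loxP sites flank Nsd2 and leave it in place, had 3 libraries. Their sample titles read WT, and the floxed genotype is the one the study gives for its RNA-seq controls. A further 3 libraries came from Nsd2 Vil-KO mice, which carry the same floxed alleles and also Cre under the Villin promoter, active in intestinal epithelium and not in other cells of the colon wall. All mice were of a C57BL/6J background and received DSS. In the study's colitis protocol this was 2% DSS in drinking water for 5 days from the age of 2 months, and the sampling day for RNA-seq is not given in the sources used here. Nothing in the labels states that the 3 libraries of a genotype came from separate mice, so p-values measure the spread between these libraries. IECs were released with EDTA and not sorted.

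Cytochrome P450 enzymes are haem monooxygenases that insert oxygen into drugs, dietary chemicals, fatty acids, sterols, bile acids and vitamins. Most sit in the endoplasmic reticulum and take electrons from P450 oxidoreductase (Por), whereas a few are mitochondrial and take them from ferredoxin (Fdx1). The gut epithelium carries its own set of these enzymes and is among the tissues that meet ingested chemicals first. Arachidonic acid is a substrate for several of the families named here, with epoxides made mainly by Cyp2c and Cyp2j enzymes and terminal hydroxylation by Cyp4 enzymes.

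Libraries held between 15439123 and 20350539 counted reads. CPM are counts scaled to library size times a normalisation factor (TMM). That factor was 0.803 in Nsd2 f/f replicate 3, 0.887 in Nsd2 Vil-KO replicate 2 and 1.06 to 1.10 elsewhere, and a low factor raises CPM. On this scale 3 counts corresponded to between 0.146 and 0.242 CPM. The targeted gene Nsd2 had 47.8, 51.1 and 24.5 CPM across Nsd2 f/f replicates 1 to 3, against 24.1, 10.4 and 20.8 CPM across Nsd2 Vil-KO replicates 1 to 3. Its log2 fold change was −1.16 ± 0.39 (SE, n = 3 per group) with an unadjusted p = 0.0217 and an adjusted p = 0.992 by edgeR's quasi-likelihood test with Benjamini-Hochberg adjustment. The genotypes did not overlap for Nsd2, although f/f replicate 3 lay close to Vil-KO replicate 1. Libraries f/f replicate 3 and Vil-KO replicate 2 stood apart: they held 4296 and 3684 Xist counts against 1 to 5 in the other 4, and their mean Spearman correlations across genes with the other 5 libraries were 0.937 and 0.927 against 0.959 to 0.964. Mitochondrial genes took 19.6% of counts in f/f replicate 3 and 5.51% to 9.13% elsewhere. Epithelial markers (Epcam, Cdh1, Krt8, Krt18, Krt19, Vil1) summed to 10288 to 16277 CPM, as against 206 to 2345 CPM for 8 myeloid markers and 7.09 to 265 CPM for 8 stromal and endothelial markers. Ly6g alone held 163 of the 206 myeloid CPM in Vil-KO replicate 3 and 1353 of the 2345 in Vil-KO replicate 2. In f/f replicate 3 it held 197 of 207 CPM, while Cxcr2 and Adgre1 had 0 reads there and Itgam 2. The lowest myeloid sums thus rest on Ly6g and are a weak measure of myeloid RNA. The 4 libraries without Xist transcripts are therefore reported beside all 6.

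Of the 94 P450 genes, 28 had no read in any library and 21 others had fewer than 10 reads in total over the 6 libraries. A filter on low counts kept 26 members among the 14650 genes tested. Of the 68 left out, 40 had at least 1 read, and the most abundant of them, Cyp4b1, had 384 reads in total. No member of the subfamilies Cyp7a, Cyp17a, Cyp19a, Cyp2g or Cyp2ab had a read. Cyp7a1 starts bile acid synthesis in liver and Cyp19a1 is aromatase, and at 3 counts per library their levels could still have reached 0.146 to 0.242 CPM. Such floors and all single counts cover counting error only.

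Levels were compared between genes as FPKM, which are reads per kilobase of exon, scaled as CPM are. Summed over the 94 genes, FPKM came to 312, 345 and 1011 in Nsd2 f/f replicates 1 to 3. In Nsd2 Vil-KO replicates 1 to 3 the sums were 382, 344 and 339. F/f replicate 3 thus had the highest level, and the other 5 libraries lay close together. Cyp2d genes provided 41.8% of the summed FPKM, Cyp4f genes 26.3%, Cyp2c genes 10.2%, Cyp3a genes 6.50% and Cyp2j genes 4.18%, as means over libraries. The share of Cyp2d, a subfamily whose human counterpart CYP2D6 clears many basic drugs, was between 36.2% and 43.7% in every library. By contrast, Cyp2c genes took 27.2% of the total in f/f replicate 3 and 13.8% in Vil-KO replicate 2 but 3.02% to 6.80% in the other 4.

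**Figure D1:**
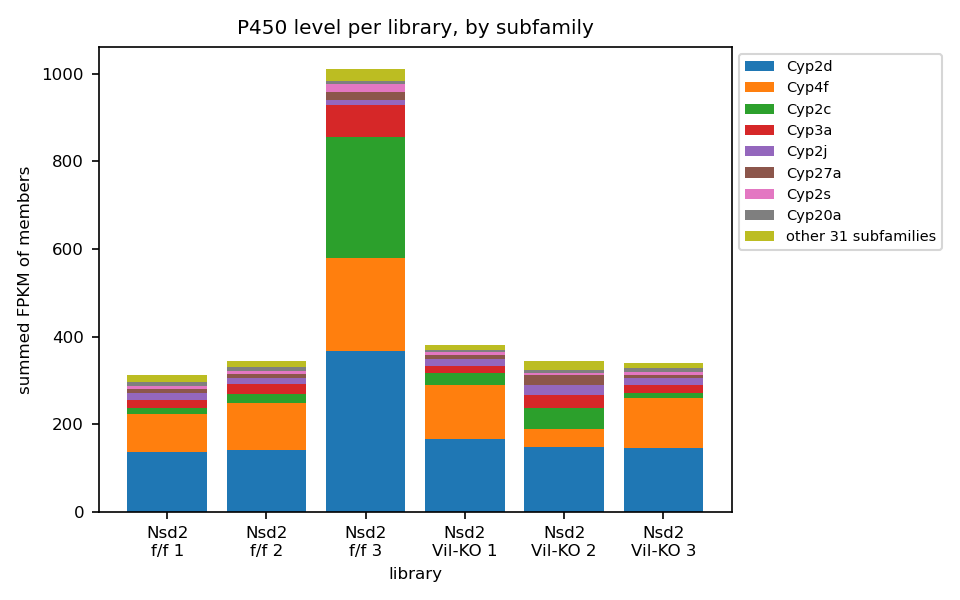
Summed level of the 94 P450 genes in each library (y axis, FPKM; x axis, library), with stacked segments for the 8 subfamilies of highest mean level and 1 segment for the rest. The bar of Nsd2 f/f replicate 3 reaches 1011 FPKM and those of the other 5 libraries end between 312 and 382 FPKM.

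Cyp2d34 had the highest level of all members, with a mean of 121 FPKM. It was followed by Cyp4f40 (42.6 FPKM), Cyp4f14 (39.3), Cyp2d10 (34.1), Cyp2c55 (32.7), Cyp3a13 (30.2), Cyp2c68 (27.9), Cyp4f16 (21.2), Cyp2j6 (15.6) and Cyp27a1 (12.3), each as mean FPKM over 6 libraries. Cyp2d34 led in each of the 6 libraries, whereas the order among the members from Cyp4f40 to Cyp4f16 changed from library to library. Within a genotype, the tested members varied more than tested genes at large: the median within-group SD of log2 CPM was 0.79 for the members and 0.38 for all 14650 genes. The highest and lowest library differed by more than 2 log2 units for 17 of 26 members (65.4%), as against 14.4% of all tested genes. F/f replicate 3 was the highest library for 15 of 26 members (57.7%) but for 23.7% of all tested genes. Vil-KO replicate 2 was the lowest for 10 members (38.5%, as against 29.2% of all genes) and the highest for 5 (19.2%, as against 28.7%). Vil-KO replicate 3 was the lowest for 8 members (30.8%, as against 12.2% of all genes) and the highest for 0.

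**Figure D2:**
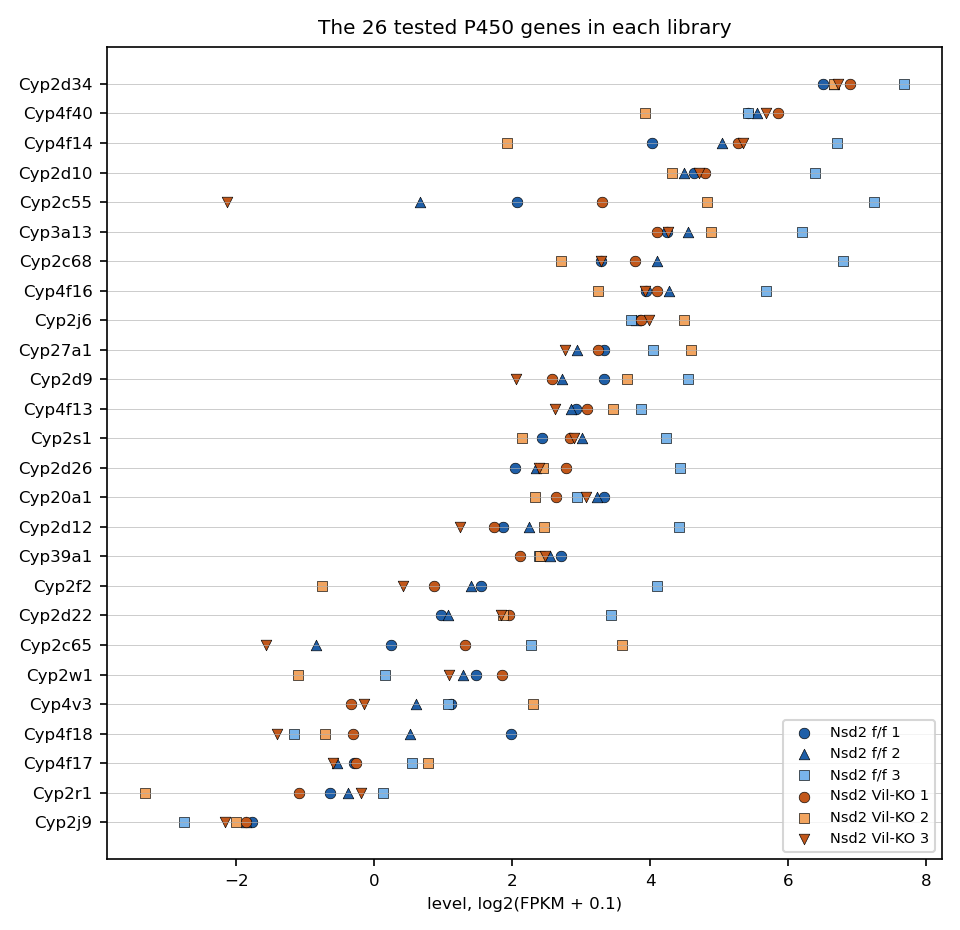
Level of the 26 tested P450 genes, ordered by mean FPKM, in each of the 6 libraries (x axis, log2 of FPKM plus 0.1). Blue symbols are Nsd2 f/f and orange symbols Nsd2 Vil-KO libraries, and squares mark the 2 libraries with Xist transcripts, of which f/f replicate 3 is the highest for 15 genes and Vil-KO replicate 2 the lowest for 10.

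The comparison of genotypes asked which P450 genes depended on epithelial Nsd2 in colitis. No member passed an adjusted p of 0.05 by edgeR's quasi-likelihood test with Benjamini-Hochberg adjustment, and neither did any of the 14650 genes (0%). The smallest adjusted p was 0.992 both among members and among all genes, and DESeq2 and limma-voom also called 0 members. At the screening criterion used in the study's results, a fold change above 1.2 with an unadjusted p under 0.05, 0 of 26 members were higher in Nsd2 Vil-KO and 2 were lower. Over all tested genes this criterion called 3.29%, with 1.65% higher and 1.65% lower, and it coincided there with the unadjusted p alone (482 genes, 3.29%). The 2 members were Cyp2f2 and Cyp2c68.

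Fold changes of 20 of 26 members were negative and 6 positive, with a median log2 fold change of −0.62 as against 0.0012 over all genes. With the 4 libraries without Xist transcripts, the signs were 13 positive and 15 negative among 28 members tested and the median was −0.0094. The median was −0.017 when f/f replicate 3 alone was left out. The median thus lay near 0 once that library was removed. The genotypes did not overlap for 1 member that was higher in Nsd2 Vil-KO, Cyp2j6, and 1 that was lower, Cyp2f2. The same was true of 9.92% of all tested genes, 5.21% higher and 4.71% lower.

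**Figure D3:**
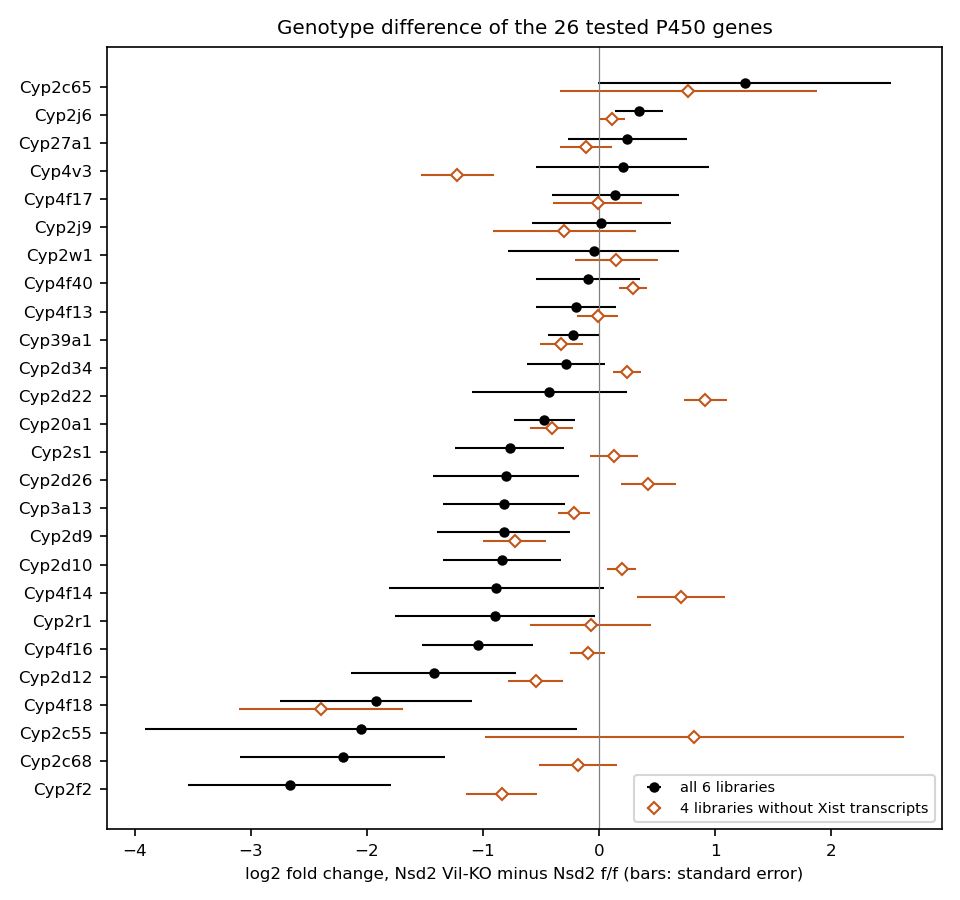
Difference between genotypes for the 26 tested P450 genes (x axis, log2 fold change of Nsd2 Vil-KO over Nsd2 f/f, bars for 1 standard error) from all 6 libraries (black) and from the 4 libraries without Xist transcripts (orange). Cyp2f2 and Cyp2c68 lie lowest with 6 libraries, at −2.67 and −2.21, and move to −0.84 and −0.18 with 4.

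Cyp2f2, best known as the enzyme of lung club cells that bioactivates naphthalene, had 5.69, 5.13 and 34.4 CPM across Nsd2 f/f replicates 1 to 3, against 3.50, 0.997 and 2.50 CPM across Nsd2 Vil-KO replicates 1 to 3. All 3 Nsd2 f/f libraries lay above all 3 Nsd2 Vil-KO libraries, and f/f replicate 3 lay far above the other 2. The log2 fold change was −2.67 ± 0.87 (SE, n = 3 per group; unadjusted p = 0.0182, adjusted p = 0.992, edgeR's quasi-likelihood test). Without f/f replicate 3 it was −1.20 (edgeR's unadjusted p = 0.0637), and without Vil-KO replicate 2 it was −2.31 (edgeR's unadjusted p = 0.0632). With the 4 libraries it was −0.84 ± 0.31 (edgeR's unadjusted p = 0.0292, n = 2 per group, adjusted p = 0.414). Cyp2f2 thus stayed lower in each of these fits, with a size that depended on f/f replicate 3. It lies on chr7:27119909-27133660 (GRCm38) and is the only Cyp2f member, with 4.30 FPKM on average.

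Cyp2j6, a Cyp2j gene of the intestine, was the member with the smallest spread among the 10 most abundant. It had 51.7, 49.6 and 47.4 CPM across Nsd2 f/f replicates 1 to 3, against 52.0, 80.7 and 56.5 CPM across Nsd2 Vil-KO replicates 1 to 3. The genotypes did not overlap, but Vil-KO replicate 1 lay within 1 CPM of f/f replicate 1. The log2 fold change of 0.35 ± 0.21 (SE, n = 3 per group) did not pass the criterion (unadjusted p = 0.137, adjusted p = 0.992, edgeR's quasi-likelihood test), and it was 0.11 with 4 libraries.

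Cyp2c genes oxidise arachidonic and linoleic acid, steroids and many drugs, and most mouse members are liver enzymes, whereas Cyp2c55, Cyp2c65 and Cyp2c66 are known from the intestine. Of 15 Cyp2c genes, 9 had a read and 3 were tested: Cyp2c55, Cyp2c65 and Cyp2c68. Cyp2c55, known for making hydroxylated arachidonic acid in colon, had 8.21, 2.95 and 304 CPM across Nsd2 f/f replicates 1 to 3, against 19.5, 56.1 and 0.255 CPM across Nsd2 Vil-KO replicates 1 to 3. Its highest and lowest libraries thus differed 1191-fold, from 3767 reads in f/f replicate 3 to 5 in Vil-KO replicate 3, and each genotype held a high and a low library. Its log2 fold change was −2.05 ± 1.86 (SE, n = 3 per group; adjusted p = 0.992, edgeR's quasi-likelihood test) and turned to 0.82 ± 1.81 with 4 libraries. Cyp2c65 had 2.08, 0.885 and 9.12 CPM across Nsd2 f/f and 4.62, 23.0 and 0.459 CPM across Nsd2 Vil-KO libraries in the same order. Both genes were highest in the 2 libraries with Xist transcripts and lowest in Vil-KO replicate 3. Cyp2c66 had 27 reads in Vil-KO replicate 2 and 0 in the other 5 libraries.

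Cyp2c68 had 16.7, 29.4 and 191 CPM across Nsd2 f/f replicates 1 to 3, against 23.4, 11.1 and 16.7 CPM across Nsd2 Vil-KO replicates 1 to 3. F/f replicate 3 was the high library, and the other 5 overlapped between genotypes. The log2 fold change of −2.21 ± 0.88 (SE, n = 3 per group; unadjusted p = 0.0408, adjusted p = 0.992, edgeR's quasi-likelihood test) became −0.43 without f/f replicate 3 (edgeR's unadjusted p = 0.32) and −0.18 ± 0.33 with 4 libraries (edgeR's unadjusted p = 0.611). It also missed the criterion without Vil-KO replicate 1 (edgeR's unadjusted p = 0.0612), replicate 2 (edgeR's unadjusted p = 0.126) or replicate 3 (edgeR's unadjusted p = 0.0887). Cyp2c68 passed it without f/f replicate 1 (−2.69, edgeR's unadjusted p = 0.00883) and without f/f replicate 2 (−2.60, edgeR's unadjusted p = 0.025), fits that keep f/f replicate 3. The nearby genes Cyp2c69 and Cyp2c70, the latter the liver enzyme of muricholic acid synthesis, had 94 and 11 reads in f/f replicate 3 and 0 to 3 elsewhere. Reads for Cyp2c68 are uncertain, since 28.5% of its 75-base stretches also occur in other transcripts, mostly those of Cyp2c40, and for Cyp2c69 the share is 42.6%. For Cyp2c55 it is 0%.

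**Figure D4:**
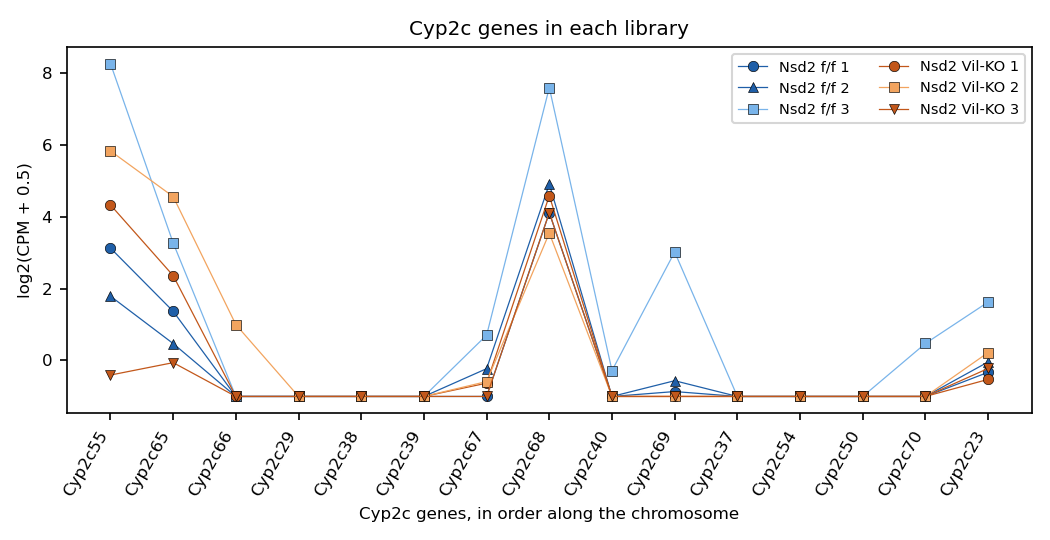
Level of the 15 Cyp2c genes, in order along chromosome 19, in each library (y axis, log2 of CPM plus 0.5; a value of −1 is 0 reads). Squares mark the 2 libraries with Xist transcripts: f/f replicate 3 is highest at Cyp2c55 (304 CPM) and Cyp2c68 (191 CPM), and Vil-KO replicate 2 is highest at Cyp2c65 (23.0 CPM) and alone has reads at Cyp2c66.

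Sequences of the 250 bases before the transcription start are shown for the Cyp2c genes that differed most between libraries, to show how alike these neighbouring promoters are. Sequences come from RefSeq on GRCm38.p6, run 5′ to 3′ on the strand of the gene, and carry in capitals the letters TATAAA, the HNF4-type motif CAAAGTCCA and the aryl hydrocarbon receptor core GCGTG, on either strand. Cyp2c55 is from chr19:39006769-39007018 (+), Cyp2c65 from chr19:39060756-39061005 (+), Cyp2c66 from chr19:39113648-39113897 (+), Cyp2c68 from chr19:39741102-39741351 (-) and Cyp2c69 from chr19:39886770-39887019 (-).
Cyp2c55: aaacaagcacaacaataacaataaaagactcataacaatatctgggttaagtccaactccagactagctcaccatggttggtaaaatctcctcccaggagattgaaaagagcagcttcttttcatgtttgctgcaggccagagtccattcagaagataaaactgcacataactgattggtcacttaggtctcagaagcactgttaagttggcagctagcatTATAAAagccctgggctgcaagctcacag
Cyp2c65: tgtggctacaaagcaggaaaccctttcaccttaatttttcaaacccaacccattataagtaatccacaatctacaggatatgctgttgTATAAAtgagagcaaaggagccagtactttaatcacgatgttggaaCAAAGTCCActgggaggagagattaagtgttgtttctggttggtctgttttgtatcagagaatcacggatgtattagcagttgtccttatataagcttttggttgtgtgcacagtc
Cyp2c66: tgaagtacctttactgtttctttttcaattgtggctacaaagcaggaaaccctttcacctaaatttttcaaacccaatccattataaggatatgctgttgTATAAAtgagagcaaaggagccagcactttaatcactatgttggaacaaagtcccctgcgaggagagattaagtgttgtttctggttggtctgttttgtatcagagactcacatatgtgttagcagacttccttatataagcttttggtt
Cyp2c68: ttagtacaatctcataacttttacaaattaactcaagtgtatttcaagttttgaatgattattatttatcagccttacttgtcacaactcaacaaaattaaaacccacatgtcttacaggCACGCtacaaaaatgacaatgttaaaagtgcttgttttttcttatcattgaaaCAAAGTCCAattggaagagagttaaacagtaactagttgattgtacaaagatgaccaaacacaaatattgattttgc
Cyp2c69: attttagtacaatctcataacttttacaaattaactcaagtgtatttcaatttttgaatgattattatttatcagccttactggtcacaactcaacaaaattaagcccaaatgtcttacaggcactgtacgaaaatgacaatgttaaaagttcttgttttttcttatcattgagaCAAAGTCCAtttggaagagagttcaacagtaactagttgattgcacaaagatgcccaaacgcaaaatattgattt

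Cyp2c68 and Cyp2c69 were 91.3% identical over these bases and Cyp2c65 and Cyp2c66 74.6%, whereas Cyp2c55 was 51.8% identical to Cyp2c65 and 46.6% to Cyp2c68. These are shares of an end-to-end alignment in which gaps, also at the ends, count as differences. Low values on this measure were 40.4% for Cyp2d26 and Cyp2d40 and 43.0% for Cyp4f16 and Cyp4f39. The shares of Cyp2c55 lie toward that low end and need not mean shared sequence. The printed bases of Cyp2c66 begin ahead of the stretch that matches the first bases of Cyp2c65, and this offset lowers the share of that pair. Cyp2c55 held TATAAA 29 bases before the start. Cyp2c65, Cyp2c68 and Cyp2c69 held CAAAGTCCA at 116, 77 and 75 bases before it, and Cyp2c40, Cyp2c67 and Cyp2c70 held it at 45, 125 and 64 bases. Promoters were at hand for 73 of the 94 members, of which 9 held CAAAGTCCA (6 of them Cyp2c genes), 26 TATAAA and 14 GCGTG. For the tested members 21 promoters were at hand, of which 2 held CAAAGTCCA (Cyp2c65, Cyp2c68), 5 TATAAA and 6 GCGTG. Most members with CAAAGTCCA were thus not among the tested genes, and near-copies such as Cyp2c68 and Cyp2c69 do not count as independent. Among all 27025 promoters of the same length, 0.381% held CAAAGTCCA, 13.0% TATAAA and 28.2% GCGTG. A match is a run of letters and was not tested as a binding site. Hnf4a, the nuclear receptor that gives the motif its name, had 551, 696 and 828 CPM across Nsd2 f/f replicates 1 to 3, against 705, 389 and 795 CPM across Nsd2 Vil-KO replicates 1 to 3, overlapping between genotypes.

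Cyp1a1, the enzyme induced through the aryl hydrocarbon receptor by polycyclic aromatic and dietary ligands, had 73 reads in Vil-KO replicate 2 and 0 in each of the other 5 libraries. That made 4.04 CPM, as against at most 0.242 CPM where no read was found. Its promoter is shown because it carries both motifs close to the start, GCGTG 54 and TATAAA 30 bases before it.
Cyp1a1: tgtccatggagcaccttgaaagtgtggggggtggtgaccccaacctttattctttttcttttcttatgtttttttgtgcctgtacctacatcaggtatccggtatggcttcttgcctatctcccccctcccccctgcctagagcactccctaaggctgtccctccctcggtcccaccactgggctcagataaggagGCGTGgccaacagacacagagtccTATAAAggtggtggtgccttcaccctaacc

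These bases lie at chr9:57697363-57697612 (+). The receptor Ahr itself had 10.03 to 14.3 CPM in all 6 libraries. Its repressor Ahrr was low throughout, with 0.499 CPM in Vil-KO replicate 2 and 0.0487 to 0.204 CPM in the others. Of the other Cyp1 genes, Cyp1b1 had 6 reads in f/f replicate 1 and 0 elsewhere, and Cyp1a2 had 0 in all libraries. Cyp4b1, an enzyme of fatty acids and furans that is typical of lung and bladder, was high in the same single library as Cyp1a1. It had 366 reads in Vil-KO replicate 2 and 0 to 7 elsewhere. Cyp1a1, Cyp1a2, Cyp1b1 and Cyp4b1 did not pass the filter on low counts.

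Cyp2d genes lie side by side on chromosome 15, and of 8 members 6 were tested. Cyp2d34 had 253, 280 and 569 CPM across Nsd2 f/f replicates 1 to 3, against 332, 281 and 293 CPM across Nsd2 Vil-KO replicates 1 to 3. Apart from f/f replicate 3, the libraries lay within 253 to 332 CPM, and the log2 fold change was −0.28 ± 0.34 (SE, n = 3 per group; adjusted p = 0.992, edgeR's quasi-likelihood test). Cyp2d10 had 41.0, 36.8 and 138 CPM across Nsd2 f/f and 45.4, 32.6 and 42.9 CPM across Nsd2 Vil-KO libraries in the same order, with a log2 fold change of −0.83 ± 0.51. Both changed sign with 4 libraries, to 0.24 and 0.19. All 6 tested Cyp2d genes were highest in f/f replicate 3 and had a negative fold change with 6 libraries.

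With 4 libraries the Cyp2d genes split by strand. Cyp2d22, Cyp2d10, Cyp2d34 and Cyp2d26, on the minus strand, were higher in both Nsd2 Vil-KO libraries than in both Nsd2 f/f libraries, whereas Cyp2d9 and Cyp2d12, on the plus strand, were lower in both. With 2 libraries against 2, 44% of all genes tested did not overlap, 22.3% higher and 21.7% lower. Cyp2d22, the member closest in function to human CYP2D6, had 7.22 and 7.85 CPM across Nsd2 f/f replicates 1 and 2, against 14.7 and 13.5 CPM across Nsd2 Vil-KO replicates 1 and 3. Its log2 fold change there was 0.92 ± 0.19 (edgeR's unadjusted p = 0.00186, n = 2 per group, adjusted p = 0.327). The libraries with Xist transcripts had 41.9 CPM (f/f replicate 3) and 13.8 CPM (Vil-KO replicate 2). For Cyp2d22, f/f replicate 3 alone thus ran against this order. Cyp2d9 had 26.5 and 17.3 CPM as against 15.5 and 10.8 CPM, a log2 fold change of −0.73 ± 0.28 (edgeR's unadjusted p = 0.0385, n = 2 per group). In Vil-KO replicate 2, Cyp2d9 had 33.5 CPM and Cyp2d12 20.9 CPM, above f/f replicates 1 and 2 (13.7 and 17.9 CPM for Cyp2d12). Cyp2d10 had 32.6 CPM there, below f/f replicates 1 and 2 (41.0 and 36.8 CPM). That library thus ran against the split for Cyp2d9, Cyp2d12 and Cyp2d10, and went with it for Cyp2d22, Cyp2d26 and Cyp2d34. The strand split was noticed in these values and was not tested. In part these genes share sequence, with 22.3% of 75-base stretches of Cyp2d10 and 12.9% of those of Cyp2d9 also found in other transcripts.

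**Figure D5:**
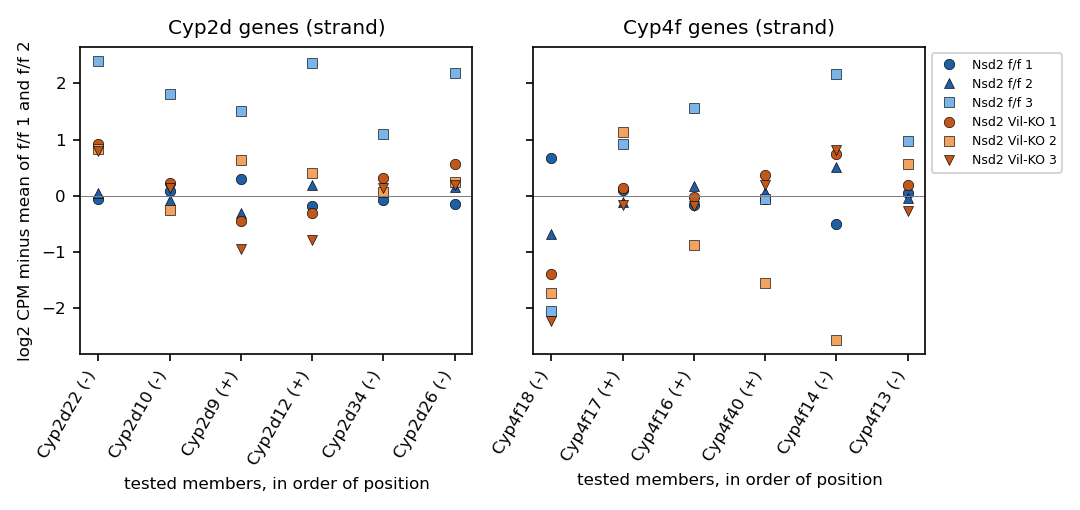
Tested Cyp2d (left) and Cyp4f (right) genes in order of position, with strand in brackets; y axis, log2 of CPM plus 0.5 minus the mean of Nsd2 f/f replicates 1 and 2. Nsd2 f/f replicate 3 (light blue squares) is the highest library for all 6 Cyp2d genes, and Vil-KO replicates 1 and 3 lie above 0 for the 4 genes on the minus strand and below it for Cyp2d9 and Cyp2d12.

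Cyp4f enzymes hydroxylate leukotriene B4, a chemoattractant of neutrophils, and the tails of long fatty acids and of vitamins E and K. Of 9 members, 6 were tested. Cyp4f40 was the steadiest of the abundant ones outside Vil-KO replicate 2, with 106, 116 and 106 CPM across Nsd2 f/f replicates 1 to 3, against 143, 37.4 and 127 CPM across Nsd2 Vil-KO replicates 1 to 3. Vil-KO replicate 2 was the only low library. The log2 fold change was −0.094 ± 0.45 (SE, n = 3 per group; adjusted p = 0.999, edgeR's quasi-likelihood test) and became 0.29 ± 0.12 with 4 libraries (edgeR's unadjusted p = 0.0431, n = 2 per group). Cyp4f14, which acts on leukotriene B4 and vitamin K, had 39.1, 79.1 and 252 CPM across Nsd2 f/f and 93.1, 8.97 and 97.9 CPM across Nsd2 Vil-KO libraries in the same order. Its lowest and its highest library were the 2 with Xist transcripts, 28.1-fold apart, and its log2 fold change of −0.89 ± 0.93 became 0.71 ± 0.38 with 4 libraries.

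Cyp4f16 had 47.0, 59.2 and 156 CPM across Nsd2 f/f replicates 1 to 3, against 52.0, 28.6 and 46.4 CPM across Nsd2 Vil-KO replicates 1 to 3. It missed the criterion with edgeR (log2 fold change −1.05 ± 0.48, unadjusted p = 0.0645, n = 3 per group) and was −0.096 with 4 libraries. Cyp4f18 is the leukotriene B4 hydroxylase of neutrophils and other myeloid cells. It had 7.12, 2.48 and 0.645 CPM across Nsd2 f/f and 1.31, 0.942 and 0.510 CPM across Nsd2 Vil-KO libraries, overlapping through f/f replicate 3, with a log2 fold change of −1.92 ± 0.83 (edgeR's unadjusted p = 0.053, n = 3 per group). With 4 libraries its log2 fold change was −2.40 ± 0.71 (edgeR's unadjusted p = 0.0156, n = 2 per group). The myeloid marker Csf1r was at 22.1, 10.2 and 0.726 CPM in the same Nsd2 f/f libraries and at 7.06, 2.55 and 3.93 CPM across Nsd2 Vil-KO. Csf1r, Itgam, Cd68, Adgre1 and Cxcr2 were, like Cyp4f18, highest in f/f replicate 1. S100a8, S100a9 and Ly6g were instead highest in Vil-KO replicate 2, at 573, 404 and 1353 CPM, where Cyp4f18 had 0.942 CPM. The 8 myeloid markers summed to 207 to 853 CPM in Nsd2 f/f and to 206 to 2345 CPM in Nsd2 Vil-KO libraries. Ly6g made up most of the lowest sums. Of these 8 markers 0 passed the criterion with 6 libraries. With 4 libraries 2 were lower (Csf1r, Ly6g), where 5.36% of all genes were. The part of these markers in the result was not tested. In bulk RNA, fewer cells of a type and less RNA per cell cannot be told apart.

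Cyp3a13, the chief Cyp3a gene of the mouse intestine, had 55.8, 69.1 and 217 CPM across Nsd2 f/f replicates 1 to 3, against 50.6, 87.1 and 56.3 CPM across Nsd2 Vil-KO replicates 1 to 3. Vil-KO replicate 2 lay above f/f replicates 1 and 2, and the log2 fold change of −0.82 ± 0.53 (SE, n = 3 per group; adjusted p = 0.992, edgeR's quasi-likelihood test) was −0.21 ± 0.14 with 4 libraries. Of the liver Cyp3a genes, Cyp3a11 had 15 reads and Cyp3a25 had 27 over all libraries, 18 of the latter in Vil-KO replicate 2. Cyp2s1, an epithelial enzyme outside the liver that oxidises retinoic acid, had 26.1, 39.5 and 91.9 CPM across Nsd2 f/f and 34.8, 21.2 and 36.3 CPM across Nsd2 Vil-KO libraries in the same order. Its log2 fold change was −0.77 ± 0.47 and turned to 0.13 ± 0.20 with 4 libraries.

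Among sterol and vitamin enzymes, Cyp27a1, the mitochondrial sterol hydroxylase of bile acid and oxysterol synthesis, had 21.6, 16.5 and 35.4 CPM across Nsd2 f/f replicates 1 to 3, against 20.4, 52.0 and 14.6 CPM across Nsd2 Vil-KO replicates 1 to 3. Its log2 fold change of 0.25 ± 0.51 (SE, n = 3 per group; adjusted p = 0.996, edgeR's quasi-likelihood test) turned to −0.11 with 4 libraries. Cyp39a1, an oxysterol hydroxylase, was the steadiest tested member, with 12.9 to 19.7 CPM over all libraries. Cyp2r1, a vitamin D hydroxylase, stayed at or below 2.10 CPM in every library, with a log2 fold change of −0.90 ± 0.86 (edgeR's unadjusted p = 0.335, n = 3 per group). Cyp24a1, which breaks down active vitamin D, had 1 read in all, and Cyp27b1, which makes it, had 31. The retinoic acid hydroxylases Cyp26a1 and Cyp26b1 had 5 and 20 reads, and Cyp11a1, which starts steroid synthesis, had 14. These 5 genes did not pass the filter on low counts, and a genotype difference was not detectable in them at this depth. Cyp4v3, a fatty acid hydroxylase, had 7.82, 5.43 and 7.58 CPM across Nsd2 f/f and 2.63, 18.4 and 3.06 CPM across Nsd2 Vil-KO libraries, so that Vil-KO replicate 2 was highest and the other 2 were lowest. The log2 fold change of Cyp4v3 was 0.20 ± 0.75 with 6 libraries (edgeR's unadjusted p = 0.793, n = 3 per group) and turned to −1.22 ± 0.31 with 4 (edgeR's unadjusted p = 0.00587, n = 2 per group).

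Subfamily sums were compared for the 14 subfamilies with a mean of at least 1 CPM, by two-sided exact permutation tests on log2(CPM + 0.5), in which 3 libraries against 3 cannot give a p below 0.1. That value was reached by Cyp2f, with a mean difference of −2.03, and by Cyp2j, with 0.32, both from Nsd2 Vil-KO minus Nsd2 f/f. Cyp2f is the gene Cyp2f2 alone, and Cyp2j6 held 56.3 of the mean 56.8 CPM of Cyp2j. Both values thus restate that these genes did not overlap between genotypes and add no support. After Benjamini-Hochberg adjustment over 14 subfamilies the smallest exact permutation p was 0.7. Cyp2d differed by −0.30, Cyp4f by −0.54, Cyp2c by −0.87 and Cyp3a by −0.58 log2 units, each less than its within-group SD of 0.57, 0.71, 1.86 and 0.79. Cyp2d and Cyp4f changed sign with the 4 libraries, to 0.18 and 0.28.

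With 4 libraries 15030 genes and 28 members were tested. The screening criterion called 2 members higher (Cyp2d22, Cyp4f40) and 4 lower (Cyp2d9, Cyp2f2, Cyp4f18, Cyp4v3), where 11% of all genes were called, 5.6% higher and 5.36% lower. An adjusted p of 0.05 was passed by 0 members and 0% of genes, the smallest adjusted p among members being 0.327 by edgeR's quasi-likelihood test, while an unadjusted p under 0.05 was found for 6 members and 11.1% of genes. The genotypes did not overlap for 8 members that were higher and 7 that were lower, as against 22.3% and 21.7% of all genes, 44% together. With Xist presence as a covariate in all 6 libraries, 0 members were higher and 3 lower (Cyp20a1, Cyp2d9, Cyp2d12), where 7.82% of genes were called, 3.73% higher and 4.08% lower. The unadjusted p called the same share of genes there (7.82%) and an adjusted p called 0%. Cyp2f2 was thus lower at the criterion with 6 and with 4 libraries but missed it with the covariate (−2.06, edgeR's unadjusted p = 0.0563). Of these fits, Cyp2c68 passed it only in the one of 6 libraries without a covariate. The difference between these fits was not tested.

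Partners of P450 enzymes were examined in the same fit. None of 6 electron donors, 12 genes of haem synthesis and breakdown, 3 epoxide hydrolases or 9 regulators of P450 genes passed the criterion with 6 libraries, and the medians of their log2 fold changes were −0.061, 0.089, −0.21 and 0.11, as against 0.0012 over all genes. Por, the electron donor of the endoplasmic reticulum, had 99.0, 93.5 and 95.8 CPM across Nsd2 f/f replicates 1 to 3, against 131, 275 and 91.3 CPM across Nsd2 Vil-KO replicates 1 to 3. Vil-KO replicate 2 was the high library, and its log2 fold change was 0.79 ± 0.39 (edgeR's unadjusted p = 0.0814, n = 3 per group). Alas1, the rate-limiting enzyme of haem synthesis, stayed within 142 to 186 CPM in all 6. The xenobiotic receptor Nr1i2 (PXR) had 69.1 to 102 CPM, overlapping between genotypes, and Nr1i3 (CAR) 0.204 to 1.77 CPM. With 4 libraries 2 of 8 regulators tested were higher at the criterion, where 5.6% of all genes were: Rxra (0.34, edgeR's unadjusted p = 0.0138) and Vdr (0.37, edgeR's unadjusted p = 0.0266), n = 2 per group.

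Markers of other cells and of colonocyte maturity also differed between libraries, and not all of them followed the P450 level. Absorptive colonocyte markers summed to 7686 CPM in f/f replicate 3 and to 2477 to 3604 CPM in the other 5, the lowest being Vil-KO replicate 2. Of these 8 markers 1, Slc37a2, passed the criterion as lower with 6 libraries. With 4 libraries 3 of 8 (Slc26a3, Krt20, Ceacam20) were higher, where 5.6% of all genes were. Aqp8 had 971 CPM in f/f replicate 3, 27.9 CPM in Vil-KO replicate 2 and 182 to 224 CPM elsewhere. Crypt base and cycling markers summed to 477 CPM in f/f replicate 3 and 704 to 1045 CPM elsewhere, and none of 6 passed the criterion with 6 libraries and 1 (Smoc2) was lower with 4. Goblet markers summed to 11265 to 12739 CPM across Nsd2 f/f and 6433 to 9486 CPM across Nsd2 Vil-KO, with 1 of 6 (Clca1) lower at the criterion with 6 libraries and 4 of 6 (Tff3, Agr2, Clca1, Spdef) with 4, where 5.36% of all genes were lower. Stromal markers were lowest in f/f replicate 3 (8.63 CPM) and Vil-KO replicate 2 (7.09 CPM), as against 18.6 to 265 CPM elsewhere, and 1 of 7 tested (Pecam1) was lower at the criterion with 6 libraries and 0 with 4. Lymphocyte markers were also lowest in these libraries, at 14.3 and 15.01 CPM as against 35.4 to 75.1 CPM, and 0 of 8 passed the criterion with 6 or with 4. The part of these cell markers in the P450 levels was not tested.

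Liver-defining genes were at or near 0: Alb had 0.166 to 0.807 CPM, and Fgb and Ahsg had a read in at most 1 library. Fga had 2.22 CPM in Vil-KO replicate 2 and 0 elsewhere. Ttr, a secreted carrier of thyroid hormone and retinol that is abundant in liver, was at 17.6, 18.8 and 49.0 CPM across Nsd2 f/f and 11.05, 10.4 and 10.97 CPM across Nsd2 Vil-KO libraries. It was lower at the criterion with 6 libraries (log2 fold change −1.39 ± 0.42, edgeR's unadjusted p = 0.0125, adjusted p = 0.992, n = 3 per group) and with 4 (−0.71 ± 0.16, edgeR's unadjusted p = 0.00309, n = 2 per group), without overlap in either. Tat was at 40.7 to 96.8 CPM. Of 6 small intestinal markers, Lct and Apoa4 were at or below 2.42 CPM in every library, Alpi at 0.714 to 9.25 CPM and Fabp6 at 3.81 to 25.7 CPM. Slc5a1, a glucose transporter, was at 181 to 283 CPM throughout. Rbp2 reached 58.6 CPM in f/f replicate 3, as against 3.21 to 17.9 CPM elsewhere. None of the 5 tested passed the criterion with 6 libraries, and 1 of 6 (Rbp2) was lower with 4, where 5.36% of all genes were.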

How the data were processed

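Processing was restricted to the steps behind the P450 genes. Raw counts for each Ensembl gene, as whole numbers with neither normalisation nor a filter, were deposited by the authors, and all 6 columns were used. Per the study's methods, polyA RNA was sequenced in paired ends, trimmed with Cutadapt and Trimmomatic and aligned to GRCm38 (mm10) with HISAT2. The library kit differs between labels and methods. The counting program and its strand setting are not given in the sources used here, so reads of overlapping genes on opposite strands and of close copies can be shared.

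Counts were normalised by TMM in edgeR 4.0.16 (R 4.3.3), filtered with filterByExpr by genotype (14650 genes) and compared with the robust quasi-likelihood test without covariates, adjusted by Benjamini-Hochberg over all tested genes. The biological coefficient of variation was 41.3%. FPKM used TMM library sizes and exon lengths from GENCODE vM21. Subfamily sums used log2(CPM + 0.5) and exact permutation tests. Alternatives used DESeq2 1.42.0 and limma 3.58.1, among others. Replicate numbers come from the sample titles. Members, gene lists, tests and alternatives were chosen with earlier results of these data known. Members named with values in every library were the markers Cyp2c55, Cyp3a13, Cyp2s1 and Cyp4f14, those past the criterion or without overlap at a mean of at least 1 CPM, and the 10 of highest FPKM, while others are named by role or where a count turns on them. Symbols and coordinates were matched for 94 of 94 members. Promoters came from RefSeq (GRCm38.p6), and figures were drawn with matplotlib 3.10.9.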

Additional observations from a re-analysis of the deposited data

How the results depend on the processing

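Over 18 alternative settings, 435 values were recomputed and 0 members had an adjusted p under 0.05 in any of them. The number of members past the screening criterion was 2 of 26 with 6 libraries (3.29% of all genes tested), 5 of 26 with DESeq2 (Cyp2f2, Cyp2c68, Cyp4f16, Cyp4f18, Cyp2d12, 5 lower; 4.32% of genes), 5 of 26 with limma-voom and quality weights (Cyp2f2, Cyp4f18, Cyp20a1 and Cyp4v3 lower, Cyp2d22 higher; 9.7% of genes) and 6 of 28 with the 4 libraries (11%). Left out in turn, single libraries gave 1 to 5, with 5 of 30 without f/f replicate 1 (3.12% of genes), 1 of 29 (Cyp2f2) without Vil-KO replicate 1 (3.67%) and 1 of 29 (Cyp4v3) without Vil-KO replicate 2 (5.08%). Members without overlap numbered 4 of 66 with no filter on low counts (7.8% of genes), 15 of 28 with the 4 libraries (44%) and 2 to 9 with single libraries left out, as 6 of 30 without f/f replicate 1 (18.1%), 9 of 28 without f/f replicate 3 (19.9%), 7 of 29 without Vil-KO replicate 2 (29%) and 4 of 28 without Vil-KO replicate 3 (16.8%). The median log2 fold change of the members was −0.0094 with 4 libraries and ranged from −0.87 to −0.017 with single libraries left out. Nsd2 was −1.12 with library size only (edgeR's unadjusted p = 0.0617) and ranged from −1.42 to −0.87 with single libraries left out, missing the criterion without f/f replicate 1 (−1.04) or replicate 2 (−0.97).

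Signs turned with the 4 libraries for 13 of 26 members, which were Cyp27a1 (−0.11), Cyp2c55 (0.82), Cyp2d10 (0.19), Cyp2d22 (0.92), Cyp2d26 (0.43), Cyp2d34 (0.24), Cyp2j9 (−0.30), Cyp2s1 (0.13), Cyp2w1 (0.15), Cyp4f14 (0.71), Cyp4f17 (−0.0090), Cyp4f40 (0.29) and Cyp4v3 (−1.22), and for the sums of Cyp27a (−0.12), Cyp2d (0.18), Cyp2s (0.15), Cyp2w (0.094), Cyp4b (−0.13) and Cyp4f (0.28). They turned with limma-voom for Cyp27a1 (−0.12), Cyp2d10 (0.084), Cyp2d34 (0.13), Cyp2s1 (0.017), Cyp4f14 (0.47) and Cyp4f40 (0.20), and with library size only for Cyp4f40 (0.016). With single libraries left out, Cyp2c55 ranged from −3.40 to 2.17, Cyp2d10 from −1.15 to 0.055, Cyp2d34 from −0.49 to 0.18, Cyp3a13 from −1.14 to 0.054, Cyp4f14 from −1.31 to 0.18, each turning without f/f replicate 3. Cyp27a1 ranged from −0.48 to 0.61 and Cyp4f40 from −0.41 to 0.30, each turning without Vil-KO replicate 2. Subfamily sums ranged from −1.62 to 0.49 for Cyp2c, −0.55 to 0.16 for Cyp2d, −0.95 to 0.017 for Cyp3a, −0.42 to 0.48 for Cyp27a, −0.78 to 0.45 for Cyp2w, −0.22 to 2.47 for Cyp4b and −1.14 to 0.16 for Cyp4v. The causes were not tested.

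Same-numbered libraries correlated in their deviations from group means by 0.302, −0.367 and −0.148, so that the numbers were not taken as pairs. With a replicate block, 2 members passed the criterion (Cyp2f2 and Cyp4f18, the latter not called without the block), as did 2.07% of all genes tested. The block moved Cyp2c68 to −1.47 (edgeR's unadjusted p = 0.122) and turned Cyp2c55 to 0.72. With 3 libraries per genotype and a coefficient of variation of 41.3%, modest differences in members of low count could be missed.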

Other observations

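Rows with Cyp symbols outside the naming rule held further reads. Cyp51, the lanosterol demethylase of cholesterol synthesis and the most conserved P450, was at 239, 289 and 254 CPM across Nsd2 f/f replicates 1 to 3, against 194, 124 and 261 CPM across Nsd2 Vil-KO replicates 1 to 3. The genotypes overlapped, and the log2 fold change was −0.43 ± 0.29 (SE, n = 3 per group; unadjusted p = 0.175, edgeR's quasi-likelihood test). Ptgis, which makes prostacyclin, was at 0.295 to 3.56 CPM, and Tbxas1, which makes thromboxane, at 0.153 to 0.841 CPM and not tested with 6 libraries. Neither tested gene of these 3 passed the screening criterion with 6 libraries. With the 4 libraries without Xist transcripts all 3 were tested and Tbxas1 was lower (−1.87 ± 0.71, edgeR's unadjusted p = 0.0335, n = 2 per group), where 5.36% of all genes were. Of 33 P450 pseudogenes that carry a ps suffix, Cyp2d37-ps had the most reads, with 220, 149 and 89 in Nsd2 f/f and 193, 108 and 134 in Nsd2 Vil-KO libraries in the same order. Cyp4f41-ps had 114 reads in total and Cyp2d34-ps 99. Sequence shared with the coding genes could place such reads on either copy, which was not tested.

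Among epoxide hydrolases, which open the epoxides that P450 enzymes make, Ephx2 was at 9.05, 6.49 and 33.0 CPM in Nsd2 f/f and 4.92, 13.4 and 5.41 CPM in Nsd2 Vil-KO libraries. It was highest in f/f replicate 3, as were 15 of the 26 tested P450 genes. Its log2 fold change was −1.03 ± 0.69 (edgeR's unadjusted p = 0.181, n = 3 per group). Ephx4 ran the other way, from 0.887 CPM in f/f replicate 3 to 12.1 CPM in Vil-KO replicate 2 and 1.79 to 2.87 CPM elsewhere, with a log2 fold change of 1.48 ± 0.83 (edgeR's unadjusted p = 0.116, n = 3 per group). Ephx1 stayed at 7.59 to 12.02 CPM.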
